A study of Mus musculus with 19 samples.

Results

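Splenic type 2 conventional dendritic cells (cDC2) lacking both Xbp1 and Ire1 were compared with wild type cDC2. The comparison took 7 of the 19 RNA-seq libraries of the series, chosen by the genotype and cell type in their labels: 3 libraries labelled Xbp1-Ire1 KO and 4 labelled WT. All mice were of the C57BL6 strain, and between 5000 and 50000 sorted cells went into each library. The description labels call WT replicates 1 and 2 fl-fl, for both genes, and WT replicates 3 and 4 WT. They are called fl-fl WT and WT-named WT below. The other groups used for comparison were 3 Xbp1 KO cDC2 libraries and, from type 1 conventional dendritic cells (cDC1), 3 Xbp1-Ire1 KO and 3 WT libraries. Of the 3 WT cDC1 libraries, 2 were fl-fl and 1 was WT-named. The Cre driver, the deleted exons, age, sex and the number of mice behind each library are not stated by the labels, so p-values measure the spread between libraries, which may be partly technical.

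IRE1, encoded by Ern1, is an endoplasmic reticulum (ER) membrane protein that senses unfolded proteins. When active, its RNase domain cuts Xbp1 mRNA, and the religated message encodes the transcription factor XBP1s, which raises ER chaperone, translocation and secretory genes. The same RNase can degrade other mRNAs, a process called regulated IRE1-dependent decay, and cells that lack XBP1 are known for raised IRE1 activity. ATF4, a transcription factor of the PERK and integrated stress response branch, raises amino acid synthesis, amino acid transport and tRNA synthetase genes. cDC2 present antigen mainly to CD4 T cells, and cDC1 are specialised in cross-presentation to CD8 T cells.

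A pair of sequence elements from this pathway, the ER stress response element (ERSE, the letters CCAAT and CCACG with any 9 letters between them) and the ATF4 element (TGATGNAA), were searched on both strands of 32851 RefSeq promoters (GRCm38.p6, 250 bases before to 50 after the start). The ERSE was found in 0.119% of all promoters and in those of 6 of the 19 ER chaperone genes with a promoter entry. The ATF4 element was found in 3.97% of all promoters and in those of 10 of 30 ATF4 and CHOP target genes. The stretches below show 6 of these genes, whose levels are given further on. Each is written 5′ to 3′ on the strand of its gene, with the matched letters in capitals. In Trib3, Slc1a4 and Chac1 the element lay on the opposite strand, and its reverse complement is capitalised.
Hspa5, chr2:34772020-34772048, plus strand: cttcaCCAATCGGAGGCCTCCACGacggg
Hsp90b1, chr10:86705633-86705661, minus strand: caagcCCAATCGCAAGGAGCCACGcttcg
Asns, chr6:7693214-7693243, minus strand: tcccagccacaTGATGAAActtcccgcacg
Trib3, chr2:152344028-152344057, minus strand: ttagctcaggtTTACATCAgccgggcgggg
Slc1a4, chr11:20332699-20332728, minus strand: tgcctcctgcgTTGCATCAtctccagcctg
Chac1, chr2:119351038-119351067, plus strand: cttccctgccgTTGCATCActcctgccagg
A match is a description of the letters and was not tested as a binding site. The same search covered the UPRE (TGACGTGG) and a sterol element (TCACCCCAC), found in 0.676% and 0.551% of all promoters. The UPRE was in 0 and the sterol element in 1 of the 19 ER chaperone promoters. Neither was in the 30 ATF4 and CHOP target promoters. Of the called genes and Itgad, described below, 2 had a promoter entry, and none of these elements was found there.

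The libraries held 10606864 to 14649501 gene counts in Xbp1-Ire1 KO and 11536884 to 13377931 in WT. Levels are given as CPM, the counts of a gene per 1000000 gene counts of the library, with library totals scaled by TMM. The Sirpa and Xcr1 ranges in this paragraph and all list levels are CPM without this scaling. For mean list levels a small constant was added before the log2. The cDC2 marker Sirpa was at 1350 to 1390 CPM in Xbp1-Ire1 KO and 1300 to 1700 CPM in WT, against 5.31 to 68 CPM in cDC1 libraries. The cDC1 marker Xcr1 was at 5.66 to 7.39 CPM in Xbp1-Ire1 KO and 6.59 to 19.5 CPM in WT, against 813 to 1280 CPM in cDC1 libraries. The markers thus followed the sort labels. In the first principal component of the 10 cDC2 libraries, which held 25.5% of the variance, the 2 fl-fl WT libraries stood apart at -41.8 and -40.9. The WT-named WT libraries were at 4.88 and -1.10 and the Xbp1-Ire1 KO libraries at -0.63, 35.0 and -12.1. For the whole comparison, many lists and some of the genes, results are therefore also given against each kind of WT library.

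Neither targeted transcript passed the test in cDC2. Xbp1 was at 63.3, 78.1 and 57.3 CPM in Xbp1-Ire1 KO, against 160 and 103 CPM in fl-fl WT and 72.6 and 76.4 CPM in WT-named WT. The fl-fl WT libraries were the highest, and the WT-named WT libraries lay within the range of the Xbp1-Ire1 KO libraries. The log2 fold change was -0.64 ± 0.24 (SE, adjusted p = 0.647, edgeR quasi-likelihood). It was -0.98 against fl-fl WT (adjusted p = 0.0107) and -0.16 against WT-named WT (adjusted p = 1.00). Ern1 was at 30.9, 21.2 and 21.8 CPM in Xbp1-Ire1 KO and 26.2, 32.1, 26.5 and 20.6 CPM in WT, with groups that overlapped and a log2 fold change of -0.09 ± 0.19 (adjusted p = 0.901). Gene-level counts include reads of the undeleted exons of a floxed gene, and which exons were deleted is not given, so these values do not check the deletions.

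Across 11646 tested genes, 3 rose and 0 fell in Xbp1-Ire1 KO cDC2 at an adjusted p under 0.05 (edgeR quasi-likelihood test, Benjamini-Hochberg), which is 0.0258% of the genes. DESeq2 called 5 genes, all of them higher. At an unadjusted p under 0.05, 877 genes passed (7.53%), 387 of them higher (3.32%) and 490 lower (4.21%). The groups did not overlap for 717 genes (6.16%). The median standard error of a log2 fold change was 0.202 and the median log2 fold change was -0.0018. The 3 called genes were Plcb1, Cox6a2 and Plcb4, which the plot of all tested genes shows above the rest.

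Plcb1 and Plcb4 encode beta class phospholipases C, which cleave the membrane lipid PIP2 downstream of G protein-coupled receptors. Plcb1 (chr2:134786067-135475258, plus strand, GRCm38) was at 6.82, 7.55 and 6.53 CPM in Xbp1-Ire1 KO, against 0.0850 CPM in 1 fl-fl WT library and 0 in the other 3 WT libraries. WT held 1 read in all and Xbp1-Ire1 KO 251, a CPM ratio of 335 with a 95% counting interval of 59.6 to 13300. The fitted log2 fold change was 7.84 ± 0.57 (adjusted p = 2.1e-05, edgeR quasi-likelihood), a value that depends on the prior count at such low WT levels. Counting intervals cover counting error only. The transcript was thus near zero in all WT libraries and present in every Xbp1-Ire1 KO library.

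Plcb4 (chr2:135659011-136014593, plus strand) begins 184 kb after the end of Plcb1. It was at 35.5, 46.1 and 41.9 CPM in Xbp1-Ire1 KO, against 0.850 and 0.148 CPM in fl-fl WT and 3.66 and 2.66 CPM in WT-named WT. Every Xbp1-Ire1 KO library was above every WT library, and the fl-fl WT libraries were below the WT-named ones. The log2 fold change was 4.51 ± 0.47 (adjusted p = 7.6e-04). It was 6.41 against fl-fl WT (adjusted p = 1.2e-06) and 3.71 against WT-named WT (adjusted p = 1.1e-04).

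Cox6a2 encodes a subunit isoform of cytochrome c oxidase known from heart and skeletal muscle, and it is also a marker of plasmacytoid dendritic cells. The gene (chr7:128205435-128206387, minus strand) was at 7.30, 7.18 and 10.2 CPM in Xbp1-Ire1 KO, against 0.340, 0.222, 0.0852 and 0.166 CPM in WT. The groups were far apart, with 293 reads in Xbp1-Ire1 KO and 10 in WT. The log2 fold change was 5.27 ± 0.41 (adjusted p = 2.9e-05). The plasmacytoid dendritic cell list as a whole was at 129 to 163 summed CPM in Xbp1-Ire1 KO and 132 to 158 summed CPM in WT, and none of its other 9 tested members was called.

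Itgad encodes integrin alpha D, which pairs with the beta2 chain encoded by Itgb2. It was at 74.0, 67.2 and 56.8 CPM in Xbp1-Ire1 KO, against 11.7 and 12.1 CPM in fl-fl WT and 5.45 and 23.4 CPM in WT-named WT. The groups did not overlap, but the gene just missed the threshold, with a log2 fold change of 2.33 ± 0.37 (adjusted p = 0.056). It was called when WT replicate 4, the highest WT library, was left out (log2 fold change 2.76, adjusted p = 0.0051), and by DESeq2 (adjusted p = 0.0061). With any other single library left out it was not called (adjusted p = 0.052 to 0.363, edgeR quasi-likelihood). In the same test it was called without a filter (adjusted p = 6.1e-04) and not with a stricter filter (adjusted p = 0.118). The call for Itgad thus depended on the setting. Against fl-fl WT its log2 fold change was 2.48 (adjusted p = 0.0075) and against WT-named WT 2.20 (adjusted p = 0.736). Itgad (chr7:128154376-128223816, plus strand) spans Cox6a2 on the opposite strand, and 70 of the 680 exonic bases of Cox6a2 overlap exons of Itgad. Whether counting used the strand is not given, so reads in those shared bases cannot be assigned to either gene.

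These 4 genes were also high in cDC2 that lack Xbp1 alone, as the plot of levels by library shows. In Xbp1 KO cDC2, Plcb1 was at 9.65, 7.34 and 7.66 CPM, Cox6a2 at 7.12, 5.49 and 6.54 CPM, and Plcb4 at 38.8, 48.3 and 48.6 CPM. Itgad was at 127, 88.7 and 51.6 CPM there. None of these differed between Xbp1-Ire1 KO and Xbp1 KO past the threshold. The log2 differences were -0.24 ± 0.34 for Plcb1, 0.36 ± 0.33 for Cox6a2, -0.14 ± 0.42 for Plcb4 and -0.44 ± 0.38 for Itgad (SE, adjusted p = 0.789 to 0.955, edgeR quasi-likelihood). These values do not show that the 2 genotypes are alike, and both are read against the same WT libraries.

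**Figure D1:**
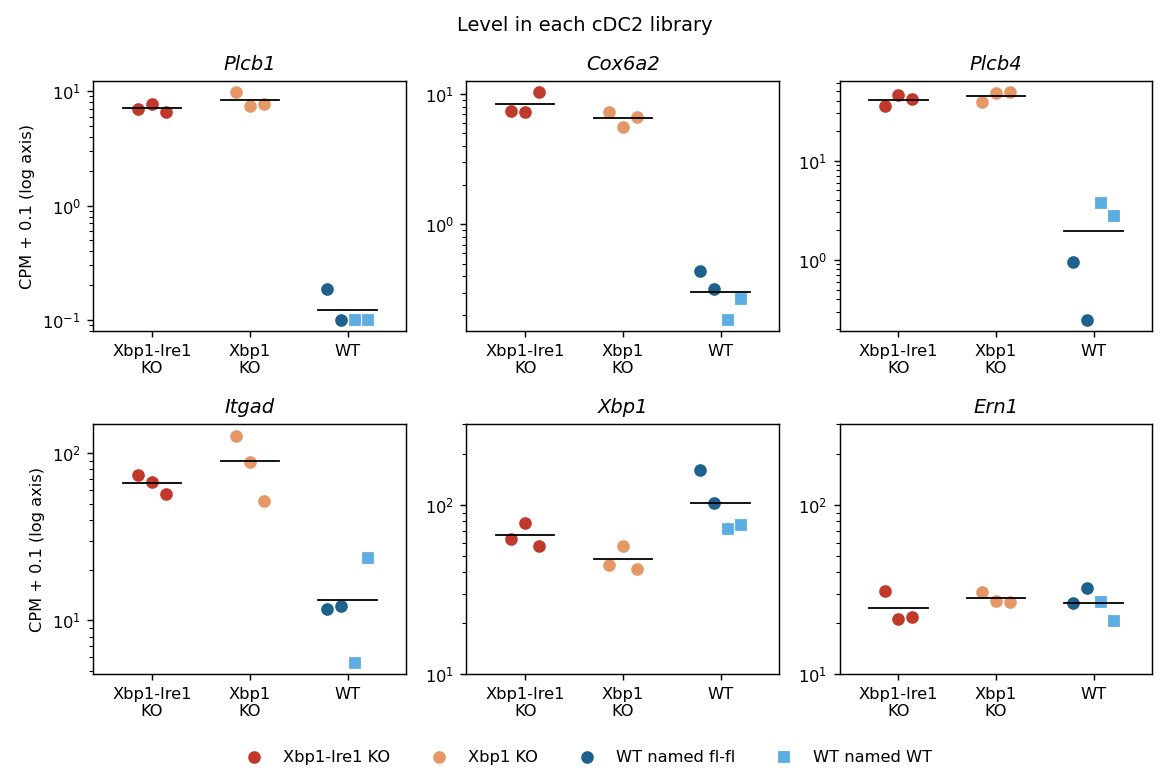
CPM plus 0.1 on a log axis in each cDC2 library for Plcb1, Cox6a2, Plcb4, Itgad, Xbp1 and Ern1, with 1 point per library and a line at the group mean plus 0.1. The 3 Xbp1-Ire1 KO libraries sit above all 4 WT libraries for Plcb1, Cox6a2, Plcb4 and Itgad, and overlap them for Xbp1 and Ern1.

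None of the other tested genes around these loci was called against all WT libraries together. Within 1 Mb of Plcb1 and Plcb4, the other 3 tested genes had log2 fold changes from -0.29 to 0.15. Within 1 Mb of Itgad, the other 49 tested genes ranged from -0.84 to 0.81 with a median of -0.15. Of these 49 genes, 4 had an unadjusted p under 0.05 (7.53% of all tested genes did). The integrin gene Itgam in this region, encoding the CD11b chain, was at 292, 249 and 253 CPM in Xbp1-Ire1 KO and 153, 182, 211 and 198 CPM in WT (log2 fold change 0.51 ± 0.13, adjusted p = 0.647). With fl-fl WT alone Itgam was called (0.66, adjusted p = 0.021, edgeR quasi-likelihood). Itgax, encoding CD11c and chosen here after its values were seen, lies 3.7 kb from Itgad and was at 1075, 1157 and 1043 CPM in Xbp1-Ire1 KO and 885, 1087, 942 and 765 CPM in WT (0.25 ± 0.12, adjusted p = 0.660). What else the mice of a group share besides the labelled genotype is not given, and it cannot be told apart from the genotype.

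**Figure D2:**
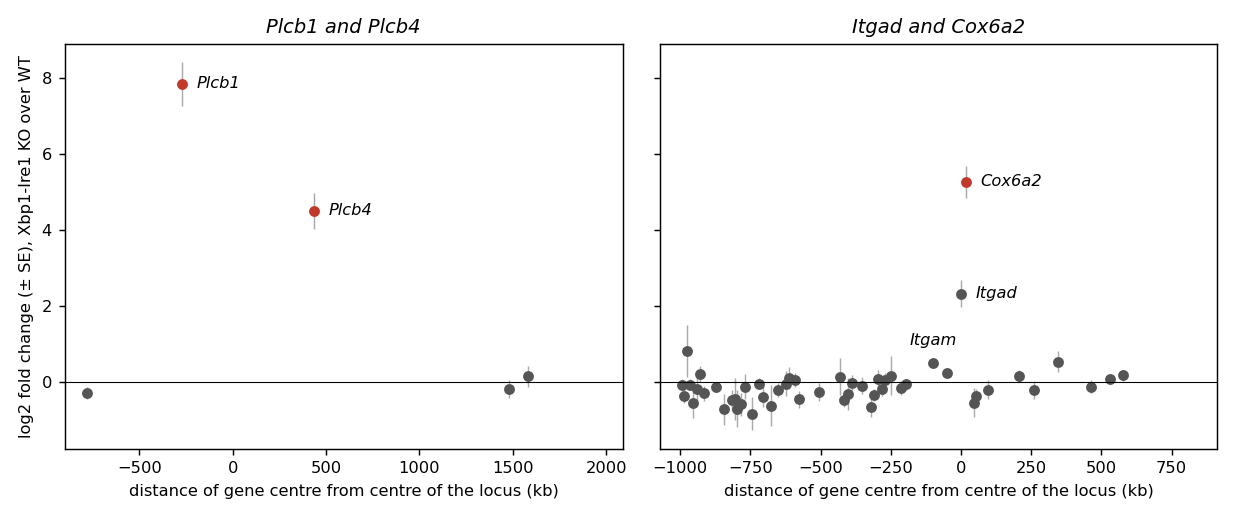
Log2 fold change with its standard error (Xbp1-Ire1 KO over WT cDC2) of the tested genes within 1 Mb of Plcb1 and Plcb4 on the left and of Itgad and Cox6a2 on the right, against the distance of each gene's centre from the centre of the locus in kb. Red points have an adjusted p under 0.05, and the neighbouring genes lie between -0.84 and 0.81.

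The outcome depended on which WT libraries were used. Against fl-fl WT, 598 of 11950 genes were called in Xbp1-Ire1 KO (5%), 345 of them higher (2.89%) and 253 lower (2.12%). Against WT-named WT, 3 were called (0.0251%), namely Plcb1, Cox6a2 and Plcb4, all higher. Each of these comparisons has 2 WT libraries. The fl-fl WT libraries themselves differed from the WT-named ones in 407 genes (3.41%), 151 of them higher (1.26%) and 256 lower (2.14%) in fl-fl WT. These 3 comparisons share libraries. The labels give no reason for the names, and whatever else differs between the 2 kinds of WT library cannot be told apart from the name.

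Among the immediate early genes, 2 were called higher and 12 lower in fl-fl WT than in WT-named WT, of the 407 genes called (1.26% of all tested genes were higher and 2.14% lower). Il1b, encoding the cytokine interleukin 1 beta, was at 2618, 2899 and 1734 CPM in Xbp1-Ire1 KO, against 259 and 247 CPM in fl-fl WT and 3153 and 2461 CPM in WT-named WT. Cd83, a maturation marker, was at 3066, 3994 and 2517 CPM in Xbp1-Ire1 KO, against 534 and 473 CPM in fl-fl WT and 3654 and 3455 CPM in WT-named WT. Both were low in the fl-fl WT libraries alone. Nr4a1, an immediate early nuclear receptor, was at 3913, 4544 and 3499 CPM in Xbp1-Ire1 KO, against 802 and 870 CPM in fl-fl WT and 4578 and 3985 CPM in WT-named WT. In fl-fl WT relative to WT-named WT the log2 differences were -3.47 ± 0.21 for Il1b, -2.82 ± 0.19 for Cd83 and -2.36 ± 0.15 for Nr4a1 (SE, adjusted p = 1.9e-06 to 2.3e-06, edgeR quasi-likelihood). These 3 genes were chosen after their values were seen.

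Against all 4 WT libraries Il1b, Cd83 and Nr4a1 had log2 fold changes of 0.66, 0.65 and 0.64 in Xbp1-Ire1 KO, with adjusted p = 0.804, 0.763 and 0.724. Against WT-named WT the values were -0.21, -0.15 and -0.09 (adjusted p = 1.00 each). The 26 immediate early genes as a list showed a mean level of 9.14, 9.41 and 8.91 log2 CPM in Xbp1-Ire1 KO, against 8.01 and 8.10 log2 CPM in fl-fl WT and 9.17 and 9.24 log2 CPM in WT-named WT. Their median log2 fold change was 0.28 against all WT libraries, with 0 called. It was 0.80 against fl-fl WT with 13 called higher and 1 lower (2.89% and 2.12% of all tested genes), and -0.03 against WT-named WT with 0 called. Immediate early genes are known to respond to tissue dissociation, and whether handling differed between the libraries was not tested.

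**Figure D3:**
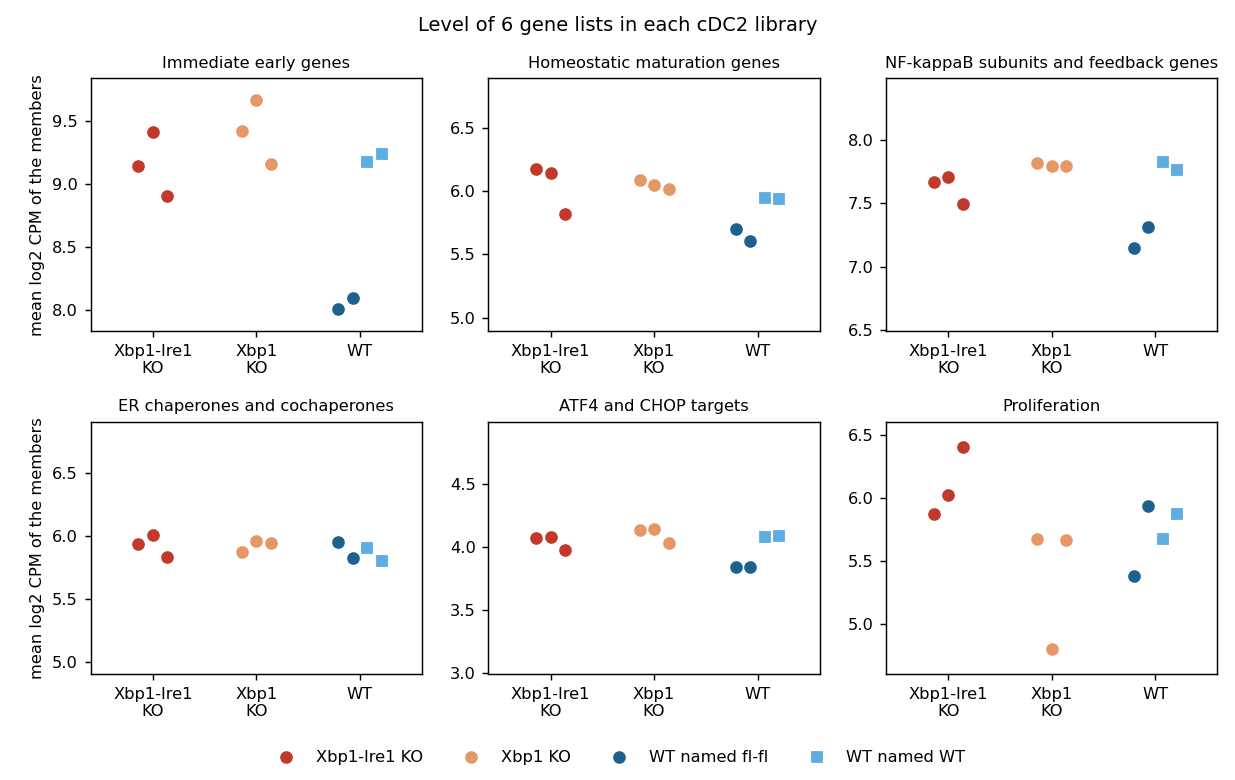
Mean log2 CPM of the members of 6 gene lists in each cDC2 library, 1 point per library, with each panel spanning 2 log2 units. The 2 fl-fl WT libraries are the lowest for immediate early genes, at 8.01 and 8.10, against 9.17 and 9.24 in the WT-named WT libraries and 8.91 to 9.41 in Xbp1-Ire1 KO.

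Genes of the unfolded protein response and the secretory pathway held 0 called members in Xbp1-Ire1 KO cDC2 against all 4 WT libraries, and 0 against WT-named WT. Against fl-fl WT, 1 sensor was called lower, 1 chaperone higher, 2 translocon genes lower, 1 transport gene higher, and 2 degradation genes higher and 2 lower (2.89% of all tested genes were higher and 2.12% lower). Of 15 ER stress sensors and regulators, 2 had an unadjusted p under 0.05, both lower (4.21% of all tested genes): Xbp1 and Wfs1. Wfs1, which encodes the ER membrane protein wolframin, was at 5.73, 2.80 and 2.80 CPM in Xbp1-Ire1 KO and 11.4, 7.68, 7.33 and 6.15 CPM in WT. The groups did not overlap, and the log2 fold change of -1.09 ± 0.34 missed the threshold (adjusted p = 0.647). Of 21 ER chaperones and cochaperones, 2 had an unadjusted p under 0.05, both higher (3.32% of all tested genes), and the list median was 0.08.

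Hsp90b1 encodes GRP94, an ER chaperone for integrins and Toll-like receptors. It was at 361, 563 and 394 CPM in Xbp1-Ire1 KO and 285, 251, 334 and 282 CPM in WT, with a log2 fold change of 0.61 ± 0.19 (adjusted p = 0.647). Hspa5, which encodes the chaperone BiP, was at 918, 1744 and 979 CPM in Xbp1-Ire1 KO, against 657 and 613 CPM in fl-fl WT and 985 and 1034 CPM in WT-named WT (0.56 ± 0.24, adjusted p = 0.660). For both, replicate 2 of Xbp1-Ire1 KO was well above the other libraries. These are the genes whose ERSE stretches are shown above. Pdia3, a disulfide isomerase that also serves the class I peptide-loading complex, was at 556, 726 and 666 CPM in Xbp1-Ire1 KO and 582, 503, 523 and 507 CPM in WT (0.30 ± 0.13, adjusted p = 0.660).

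The remaining secretory lists had medians close to 0. Disulfide isomerases and ER oxidases had a median log2 fold change of 0.10 over 19 genes, and the translocon, SRP and signal peptidase list -0.04 over 23. N-glycosylation genes had a median of -0.12 over 32 genes, ER to Golgi transport genes -0.07 over 43, and ER-associated degradation genes -0.03 over 23. Among transport genes only Sec24d, a cargo-binding COPII coat subunit, had an unadjusted p under 0.05. It was at 7.64, 8.49 and 7.28 CPM in Xbp1-Ire1 KO and 17.1, 10.8, 11.2 and 9.89 CPM in WT (-0.65 ± 0.24, adjusted p = 0.647).

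The 12 tested genes of a list of reported IRE1 RNase substrates had a median log2 fold change of 0.01, with 0 called. The beta2 integrin chain Itgb2, which this list holds, was at 1170, 1191 and 1183 CPM in Xbp1-Ire1 KO and 958, 1020, 970 and 927 CPM in WT. The log2 fold change was 0.29 ± 0.10 (adjusted p = 0.647). In Xbp1 KO cDC2, Itgb2 was at 735, 762 and 695 CPM, below every library of the other genotypes. Relative to Xbp1 KO, Itgb2 was higher in Xbp1-Ire1 KO by 0.69 ± 0.10 log2 (adjusted p = 0.033, edgeR quasi-likelihood). It was 1 of 4 genes called in that comparison (0.0343% of 11646), with Adamdec1 and Lsm12 higher and Arf2 lower in Xbp1-Ire1 KO. DESeq2 called 11 there. Adamdec1 held 0 reads in Xbp1 KO cDC2, against 213 in Xbp1-Ire1 KO and 387 in WT. It was thus missing from the Xbp1 KO libraries and not raised over WT in Xbp1-Ire1 KO. The reason was not tested. For Xbp1 KO against WT, 12 genes were called (0.103%).

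ATF4 and CHOP targets and tRNA synthetases held 0 called members in cDC2 against all 4 WT libraries, and 0 against WT-named WT. Against fl-fl WT, 6 ATF4 and CHOP targets and 1 synthetase were called higher and none lower (2.89% of all tested genes were higher). Of 28 tested ATF4 and CHOP targets, 1 was higher and 1 lower at an unadjusted p under 0.05, and the median log2 fold change was 0.06. Slc7a11, the cystine transporter, was at 16.7, 20.8 and 20.4 CPM in Xbp1-Ire1 KO and 15.1, 11.7, 12.7 and 16.5 CPM in WT (0.46 ± 0.18, adjusted p = 0.650). Slc1a4, a neutral amino acid transporter, was at low levels, with 0.546, 0.746 and 0.373 CPM in Xbp1-Ire1 KO and 1.11, 2.29, 1.62 and 1.08 CPM in WT (-1.44 ± 0.59, adjusted p = 0.660). Atf3, a stress-induced transcription factor, followed the names of the WT libraries, at 617.7, 966 and 421 CPM in Xbp1-Ire1 KO, against 56.6 and 39.4 CPM in fl-fl WT and 655 and 555 CPM in WT-named WT. The 20 cytosolic aminoacyl-tRNA synthetases had a median of 0.13, with Gars (0.33 ± 0.12, adjusted p = 0.647) and Nars (0.26 ± 0.11, adjusted p = 0.660) having an unadjusted p under 0.05.

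Homeostatic maturation genes, which dendritic cells raise when they mature without infection, had a median log2 fold change of 0.30 over 47 genes. None was called; 9 were higher and 2 lower at an unadjusted p under 0.05 (3.32% and 4.21% of all tested genes). The median was 0.45 against fl-fl WT, with 9 called higher and 2 lower (2.89% and 2.12%), and 0.20 against WT-named WT, with 0 called. Ccr7, the receptor that guides mature dendritic cells to lymph nodes, was at 1540, 1890 and 1097 CPM in Xbp1-Ire1 KO, against 459 and 346 CPM in fl-fl WT and 1668 and 1463 CPM in WT-named WT. It was chosen for its role after its values were seen, and its log2 fold change was 0.62 ± 0.42 (adjusted p = 0.703). The genes of this list lowest in p were Relb, Tnfrsf9 and Il15ra.

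Relb, an NF-kappaB subunit of dendritic cell maturation, was at 429, 465 and 402 CPM in Xbp1-Ire1 KO and 570, 655, 552 and 527 CPM in WT. All Xbp1-Ire1 KO libraries were below all WT libraries (-0.42 ± 0.11, adjusted p = 0.647). Tnfrsf9, the costimulatory receptor 4-1BB, was at 16.4, 18.8 and 10.8 CPM in Xbp1-Ire1 KO and 9.61, 6.65, 7.75 and 9.06 CPM in WT (0.89 ± 0.25, adjusted p = 0.647). Il15ra, which presents interleukin 15 to T and NK cells, was at 9.28, 9.70 and 6.72 CPM in Xbp1-Ire1 KO and 3.74, 4.73, 5.03 and 6.32 CPM in WT (0.79 ± 0.27, adjusted p = 0.647). These 3 genes did not overlap between groups and missed the threshold, in different directions. Over all tested genes, 6.16% did not overlap, and Relb and Tnfrsf9 also met the rule that chose genes by it. With fl-fl WT alone Relb was called lower (-0.51, adjusted p = 0.036, edgeR quasi-likelihood).

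Chemokines and their receptors had a median log2 fold change of 0.39 over 22 genes, with 0 called. The median was 0.57 against fl-fl WT, with 8 called higher and 0 lower (2.89% and 2.12% of all tested genes), and 0.25 against WT-named WT, with 0 called. Gpr183, an oxysterol receptor that positions cDC2 in the spleen, was at 393, 464 and 451 CPM in Xbp1-Ire1 KO and 307, 276, 355 and 367 CPM in WT (0.42 ± 0.14, adjusted p = 0.647). Cxcr4 was at 194, 194 and 123 CPM in Xbp1-Ire1 KO, against 73.0 and 50.2 CPM in fl-fl WT and 150 and 119 CPM in WT-named WT (0.80 ± 0.30, adjusted p = 0.647). Class I presentation genes had a median of 0.03 over 22 genes and class II presentation genes -0.15 over 16. Lysosome genes had a median of 0.01 over 35 genes, cholesterol genes -0.10 over 26, and LXR target and fatty acid genes -0.09 over 18. The cDC2 identity list had a median of -0.02 over 29 genes. None of these lists had a called member against all 4 WT libraries or against WT-named WT. Against fl-fl WT, 1 class II, 1 lysosome, 1 cholesterol and 1 LXR target or fatty acid gene were called lower, and 1 lysosome and 1 cDC2 identity gene higher.

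No proliferation gene was called against all WT libraries together. The median log2 fold change of the 32 tested was 0.45. All 32 values were above 0, from 0.02 to 0.95, and 7 had an unadjusted p under 0.05 (3.32% of all tested genes were higher at that p). The median was 0.38 against fl-fl WT, with 1 called higher (2.89% of all tested genes), and 0.41 against WT-named WT, with 0 called. The mean level of the list was 5.87, 6.03 and 6.40 log2 CPM in Xbp1-Ire1 KO and 5.38, 5.94, 5.68 and 5.88 log2 CPM in WT, so the groups overlapped. Red pulp macrophage and erythroid markers also had medians above 0 in these libraries, at 0.53 and 1.79, and their part in this result was not tested. Kif11, a spindle motor, was at 55.6, 75.9 and 91.6 CPM in Xbp1-Ire1 KO and 25.6, 44.5, 40.03 and 43.4 CPM in WT (0.95 ± 0.26, adjusted p = 0.647). Hmgb2, a chromatin protein of cycling cells, was at 531, 575 and 763 CPM in Xbp1-Ire1 KO and 373, 358, 418 and 492 CPM in WT (0.60 ± 0.18, adjusted p = 0.647). In bulk libraries a change in the share of cycling cells and a change of RNA per cell cannot be told apart.

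Below the threshold, the genes lowest in p with groups that did not overlap included further mitotic kinesins. Kif15 was at 13.5, 22.3 and 22.3 CPM in Xbp1-Ire1 KO and 5.10, 6.94, 9.97 and 9.31 CPM in WT (log2 fold change 1.30 ± 0.33). Kif4 was at 18.3, 15.5 and 31.1 CPM in Xbp1-Ire1 KO and 5.61, 5.10, 10.7 and 13.2 CPM in WT (1.32 ± 0.33). The calcium-dependent membrane protein Anxa2 was at 261, 243 and 270 CPM in Xbp1-Ire1 KO and 178, 191, 185 and 213 CPM in WT (0.43 ± 0.11). Hilpda, a lipid droplet protein induced by hypoxia, had a log2 fold change of 1.16 ± 0.31 and the golgin Golga1 0.88 ± 0.24. The interferon-inducible Ifi200 family genes Mndal (0.71 ± 0.20) and Ifi203 (0.54 ± 0.16) are related in sequence and overlap in position, so their counts may share reads. All of these had an adjusted p of 0.647 (edgeR quasi-likelihood). With fl-fl WT alone Kif15, Kif4, Anxa2, Hilpda and Mndal were called in the same test (adjusted p = 0.0046 to 0.04985). With WT-named WT alone none of these was called.

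On the lower side, Chpf, a chondroitin synthesis factor, was at 8.05, 6.62 and 10.5 CPM in Xbp1-Ire1 KO and 17.8, 20.5, 15.5 and 13.96 CPM in WT (log2 fold change -1.02 ± 0.22). Slc5a6, the sodium-dependent vitamin transporter, was at 8.60, 2.71 and 4.29 CPM in Xbp1-Ire1 KO and 24.3, 12.6, 11.8 and 10.1 CPM in WT (-1.48 ± 0.40). Asb2, a substrate receptor of a ubiquitin ligase, was at 582, 506 and 626 CPM in Xbp1-Ire1 KO and 903, 959, 684 and 742 CPM in WT (-0.53 ± 0.14). These genes were chosen by groups that do not overlap, so every Xbp1-Ire1 KO library was below every WT library by that choice. Over all tested genes, 6.16% did not overlap. The chromatin-associated Rai1 (-0.87 ± 0.21) and Pogz (-0.78 ± 0.18), the zinc finger genes Plagl2 (-0.85 ± 0.22) and Zfp574 (-1.17 ± 0.32) and the sphingosine kinase Sphk2 (-0.66 ± 0.17) had negative values too. All of these had an adjusted p of 0.647. With fl-fl WT alone all of them were called (adjusted p = 6.0e-04 to 0.048, edgeR quasi-likelihood). With WT-named WT alone none was called.

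Several genes named by list were close to the same bound. The tetraspanin Cd37 was at 55.7, 57.5 and 59.5 CPM in Xbp1-Ire1 KO and 85.0, 125, 95.9 and 62.0 CPM in WT (log2 fold change -0.67 ± 0.19). The cell cycle inhibitor Cdkn1a was at 127, 126 and 90.2 CPM in Xbp1-Ire1 KO, against 36.8 and 24.1 CPM in fl-fl WT and 85.0 and 85.3 CPM in WT-named WT (0.98 ± 0.34). Scap, the escort protein of SREBP processing, was at 90.1, 89.9 and 85.6 CPM in Xbp1-Ire1 KO and 113, 138, 108 and 103 CPM in WT (-0.38 ± 0.12). Cdkn1a was thus close to the WT-named libraries and far from the fl-fl ones. Fatty acid synthase, Fasn, had a log2 fold change of -0.39 ± 0.15, and the cholesterol exporter Abcg1 -0.45 ± 0.19. The adjusted p was 0.647 to 0.660 for these 5 genes. With fl-fl WT alone Cd37, Cdkn1a and Abcg1 were called (adjusted p = 3.9e-04 to 0.018, edgeR quasi-likelihood), and with WT-named WT alone none was.

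Markers of other cell types gave summed levels that overlapped between the groups. The plasma cell list was at 236 to 490 summed CPM in Xbp1-Ire1 KO and 253 to 306 summed CPM in WT over its 7 genes. It also holds Xbp1 and Irf4, which cDC2 express. Jchain, the immunoglobulin joining chain, was at 56.7, 141 and 24.6 CPM in Xbp1-Ire1 KO and 19.9, 30.6, 14.8 and 11.2 CPM in WT (1.95 ± 0.51, adjusted p = 0.647). The 12 red pulp macrophage markers were at 809 to 1435 summed CPM in Xbp1-Ire1 KO and 563 to 1078 summed CPM in WT, with none at 0 in any library. All 12 had a log2 fold change above 0, from 0.07 to 1.18 with a median of 0.53, and none had an unadjusted p under 0.05. Erythroid markers were at 23.9 to 57.5 summed CPM in Xbp1-Ire1 KO and 18.1 to 39.9 summed CPM in WT, with 3 or 4 of the 9 measured genes at 0 in Xbp1-Ire1 KO and 3 to 7 in WT. The 5 erythroid genes that passed the filter on low counts had log2 fold changes from 0.35 to 2.64 with a median of 1.79, 1 of them at an unadjusted p under 0.05. B cell markers were at 285 to 365 summed CPM in Xbp1-Ire1 KO and 319 to 328 summed CPM in WT, and T cell markers at 22 to 33.4 summed CPM in Xbp1-Ire1 KO and 23.6 to 37.8 summed CPM in WT. Monocyte markers were at 2183 to 2739 summed CPM in Xbp1-Ire1 KO and 2177 to 2847 summed CPM in WT. NK cell markers were at 4.98 to 13.3 summed CPM in Xbp1-Ire1 KO and 1.95 to 9.49 summed CPM in WT, and neutrophil markers at 19.7 to 38.7 summed CPM in Xbp1-Ire1 KO and 23.6 to 38.5 summed CPM in WT. The part of these cells in the results was not tested.

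The effect of losing Xbp1 and Ire1 differed between cDC2 and cDC1. In 1 fit of all 19 libraries with 12185 tested genes, 3 genes were called in cDC2 (0.0246%) and 1023 in cDC1 (8.4%), 398 of them higher (3.27%) and 625 lower (5.13%). Some cDC1 and cDC2 libraries of a genotype carry the same number in the description label. Whether they came from the same mice is not given, and the fit treated all libraries as independent. The difference itself, cDC2 effect minus cDC1 effect, was past the threshold for 272 genes (2.23%), 180 of them with a higher value in cDC2 (1.48%) and 92 with a lower one (0.755%). With cDC1 Xbp1-Ire1 KO replicate 1 left out the count was 170. It was 259 with fl-fl WT libraries alone, and 181 of these genes were among the 272. The settings with fl-fl WT alone and with WT-named WT alone were both chosen after the data were seen.

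ATF4 and CHOP targets gave the largest list difference among the lists plotted. CPM values from here on are scaled over all 19 libraries, so those of cDC2 differ slightly from the values above. These targets had a median log2 fold change of 0.07 in cDC2, with 0 of 35 called. In cDC1 it was 2.07, with 28 called higher and 0 lower (3.27% and 5.13% of all tested genes). In the fit of the cDC2 libraries alone, 28 of the list passed the filter on low counts. Trib3 was not tested there and entered through its cDC1 reads, so the counts here rest partly on genes high in cDC1. The difference was called for 21 of the 35, all lower in cDC2 (0.755% of all tested genes). With fl-fl WT alone it was called for 19. With WT-named WT alone, which left 1 WT cDC1 library, the list median of the difference was -2.65. Asns, asparagine synthetase, was at 0.267, 1.73 and 0.911 CPM in Xbp1-Ire1 KO cDC2 and 0.977, 0, 1.07 and 1.22 CPM in WT cDC2. In cDC1 it was at 247, 164 and 156 CPM in Xbp1-Ire1 KO and 9.30, 14.2 and 8.83 CPM in WT. The difference of effects was -3.93 ± 0.90 log2 (adjusted p = 0.022).

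Trib3, a pseudokinase induced by ATF4 and CHOP, was at 0.801, 0 and 0 CPM in Xbp1-Ire1 KO cDC2 and 2.04, 0.635, 0.577 and 0.812 CPM in WT cDC2. In cDC1 it was at 131, 105 and 88.7 CPM in Xbp1-Ire1 KO and 2.65, 3.99 and 3.08 CPM in WT (difference -6.70 ± 0.84, adjusted p = 9.7e-05). Chac1, a glutathione-degrading enzyme, was at 2.07, 3.18 and 2.64 CPM in Xbp1-Ire1 KO cDC2, against 0.814 and 0.847 CPM in fl-fl WT and 5.61 and 4.14 CPM in WT-named WT. In cDC1 it was at 68.5, 67.1 and 64.9 CPM in Xbp1-Ire1 KO and 9.30, 5.63 and 16.3 CPM in WT (difference -2.80 ± 0.67, adjusted p = 0.030). Asns, Trib3 and Chac1, whose ATF4 elements are shown above, were high in Xbp1-Ire1 KO cDC1 and low in every cDC2 library. They were picked from 10 list members with the element, and not all of these shared the pattern. Atf3, another of the 10, was high in Xbp1-Ire1 KO and WT-named WT cDC2. Whether the element bears on these levels was not tested. Asns, Trib3 and Chac1 were chosen after their values were seen, and the Asns and Chac1 differences missed the threshold when some single libraries were left out. With fl-fl WT alone they missed it too. The differences there were -3.08 for Asns (adjusted p = 0.331) and -1.58 for Chac1 (adjusted p = 0.108, edgeR quasi-likelihood).

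Named by the smallest adjusted p of the difference, Slc1a4 had a log2 fold change of 3.83 in cDC1 and -1.43 in cDC2 (difference -5.26 ± 0.59, adjusted p = 3.2e-05). Phgdh, the first enzyme of serine synthesis, was at 10.6, 15.8 and 14.3 CPM in Xbp1-Ire1 KO cDC2 and 11.7, 15.6, 12.8 and 11.04 CPM in WT cDC2. In cDC1 it was at 449, 380 and 385 CPM in Xbp1-Ire1 KO and 46.0, 44.5 and 36.2 CPM in WT (difference -3.18 ± 0.26, adjusted p = 6.4e-07). The cDC2 groups overlapped and the cDC1 groups were far apart. Mthfd2, a mitochondrial one-carbon enzyme, the seryl-tRNA synthetase Sars, the translation inhibitor Eif4ebp1, the mitochondrial chaperone Hspa9 and the tRNA exporter Xpot had differences of -1.71, -1.76, -2.16, -1.40 and -1.62. Their cDC2 log2 fold changes lay between -0.03 and 0.20, and their cDC1 ones between 1.60 and 2.17.

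The largest of the 12 differences named by the smallest adjusted p was that of Ptger3, a prostaglandin E2 receptor. It was at 71.8, 63.9 and 72.4 CPM in Xbp1-Ire1 KO cDC2 and 55.1, 69.3, 79.8 and 59.8 CPM in WT cDC2. In cDC1 it was at 24.03, 15.2 and 14.02 CPM in Xbp1-Ire1 KO and 0.171, 0.235 and 0.567 CPM in WT (difference -5.65 ± 0.40, adjusted p = 1.2e-07). A gene with a steady level in cDC2 was thus nearly absent from WT cDC1. The cytosolic aminoacyl-tRNA synthetases had a median log2 fold change of 0.15 in cDC2 and 1.05 in cDC1. In cDC1, 13 of 20 were called higher (3.27% of all tested genes). The difference was called for 10 of the 20, all lower in cDC2 (0.755% of all tested genes).

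Maturation genes differed in the opposite direction. Homeostatic maturation genes had a median of 0.30 on the log2 scale in cDC2, with 0 of 48 called. In cDC1 it was -1.34, with 31 called lower (5.13% of all tested genes). The difference was called for 25 of the 48, all higher in cDC2 (1.48% of all tested genes), and for 26 with fl-fl WT alone. With WT-named WT alone, which left 1 WT cDC1 library, the list median of the difference was 1.56. Ccr7 was at 1507, 1841 and 1071 CPM in Xbp1-Ire1 KO cDC2, against 439, 331, 1616 and 1429 CPM in WT cDC2. In cDC1 it was at 119, 72.8 and 188 CPM in Xbp1-Ire1 KO and 866, 389 and 1372 CPM in WT (difference 3.416 ± 0.68, adjusted p = 0.0074). Relb had a log2 fold change of -0.40 in cDC2 and -1.53 in cDC1 (difference 1.13 ± 0.18, adjusted p = 0.0010). The NF-kappaB list had a median of 0.03 in cDC2 and -0.59 in cDC1, with 10 of 21 called lower in cDC1 (5.13% of all tested genes). The difference was called for 7 of the 21, all higher in cDC2 (1.48% of all tested genes).

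**Figure D4:**
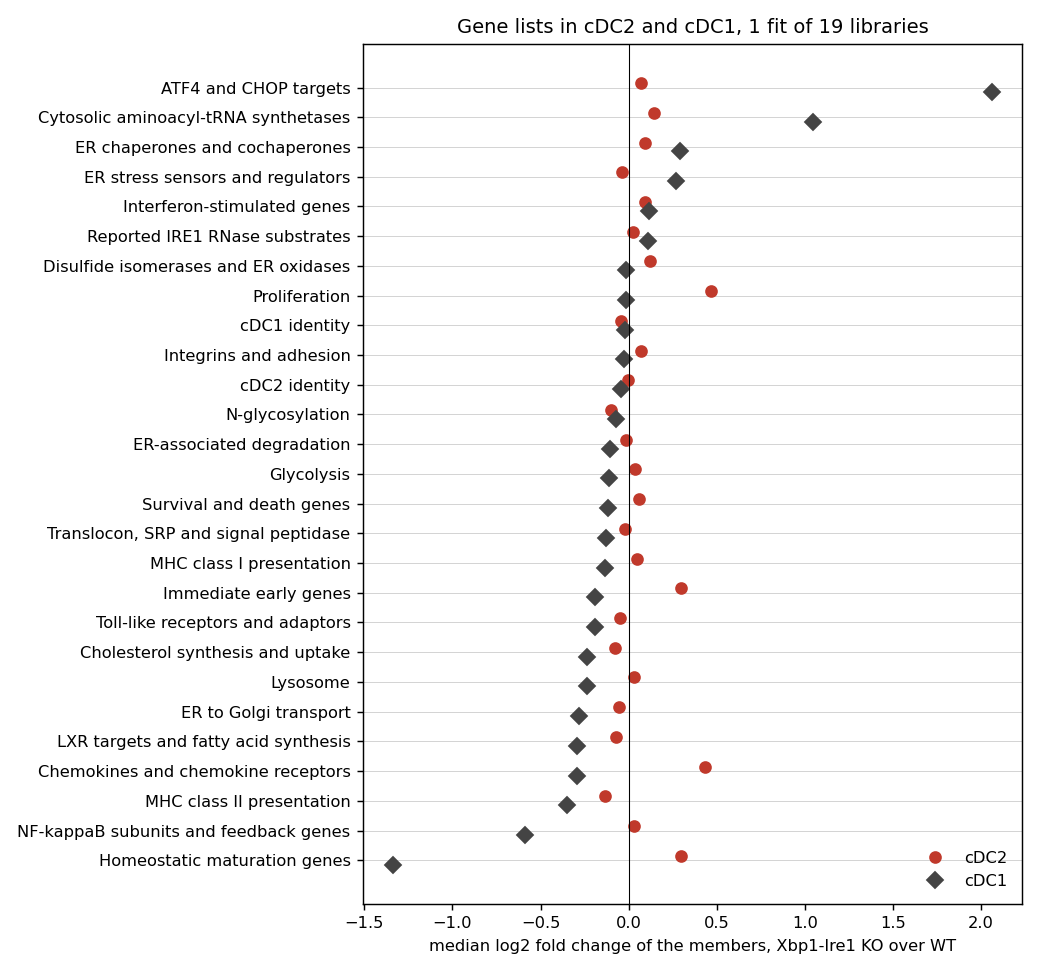
Median log2 fold change of Xbp1-Ire1 KO over WT for the tested members of each list, in cDC2 (red circles) and cDC1 (grey diamonds), from 1 fit of 19 libraries. ATF4 and CHOP targets are at 0.07 in cDC2 and 2.07 in cDC1, and homeostatic maturation genes at 0.30 in cDC2 and -1.34 in cDC1.

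The remaining named differences were positive. Apol7c, an apolipoprotein L family gene, had a log2 fold change of 0.28 in cDC2 and -2.40 in cDC1 (difference 2.69 ± 0.32). Ccng2, an unconventional cyclin, had 0.18 in cDC2 and -1.75 in cDC1 (difference 1.93 ± 0.24). Tmem176a and Tmem176b, membrane proteins of dendritic cells, had -0.33 and -0.21 in cDC2 and -3.64 and -2.74 in cDC1. Tmem176a and Tmem176b overlap on opposite strands, so their counts may share reads. The adjusted p of these 4 differences lay between 1.2e-05 and 9.3e-05.

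Of the targeted transcripts and the 3 called genes, Ern1, Xbp1 and Plcb4 passed the test of the difference. Ern1 had a log2 fold change of -0.08 in cDC2 and 1.28 in cDC1 (difference -1.35 ± 0.26, adjusted p = 0.0049). With WT-named WT alone the Ern1 difference was -1.31 and missed the threshold (adjusted p = 0.056). Xbp1 had -0.62 in cDC2 and 0.92 in cDC1 (difference -1.54 ± 0.33, adjusted p = 0.013). Plcb4 was at 29.6, 23.5 and 30.9 CPM in Xbp1-Ire1 KO cDC1 and 8.19, 10.6 and 13.9 CPM in WT cDC1, and it rose there too, by 1.36 log2 (adjusted p = 0.040), less than in cDC2 (difference 3.16 ± 0.58, adjusted p = 0.0038). Cox6a2 was at 114, 72.4 and 68.8 CPM in Xbp1-Ire1 KO cDC1 and 0.341, 0.313 and 0.648 CPM in WT cDC1. Cox6a2 rose there by 7.58 log2 (adjusted p = 2.2e-10, edgeR quasi-likelihood). Its difference of effects of -2.30 ± 0.70 missed the threshold in the same test (adjusted p = 0.104), while DESeq2 called it (adjusted p = 0.038). Plcb1 was at 0.270, 1.56 and 0.604 CPM in Xbp1-Ire1 KO cDC1 and 0 in all 3 WT cDC1 libraries. It was called higher there (adjusted p = 0.0075, edgeR quasi-likelihood), with a fitted log2 fold change of 6.44 that rests on these zeros. Its fitted difference, which also rests on them, did not pass (adjusted p = 0.945).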

How the data were processed

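RNA-seq counts per gene of 10 cDC2 and 9 cDC1 libraries from mouse spleen were analysed. The deposited tables hold raw whole-number counts per gene, and normalized values on a log2 scale. Per the submitters' processing notes, the authors used FastQC 0.11.4, Trimmomatic 0.35, TopHat2 2.1.0, SAMtools 0.1.19 and limma 3.42.2 with the mm10 build. The counting tool and its strand setting were not given in the sources used here. Within each cell type the deposited log2 values equalled log2 CPM plus an offset per library, which was from -0.0301 to 0.0717 in cDC2, and 11441 cDC2 genes were kept there.

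Counts were tested with edgeR 4.0.16 (R 4.3.3): genes were kept with filterByExpr (minimum count 10, minimum total 15), scaled by TMM and fitted with the quasi-likelihood model. The 10 cDC2 libraries were fitted together as 3 genotypes, again with WT split by the name in the description label, and all 19 libraries together for the difference between cell types. P-values were adjusted over all tested genes (Benjamini-Hochberg) and called under 0.05. Standard errors were the absolute log2 fold change over the square root of F. The fit was tested on simulated data. Settings were also run with DESeq2 1.42.0, limma 3.58.1, other filters and scaling, and with libraries left out.

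Of 822 entries in 38 gene lists, 8 matched no row of the tables. The members and lists were chosen with earlier results of these data known. Genes named were the called genes, those with the smallest p and groups that did not overlap at a mean log2 CPM of at least 3, up to 4 per list by p (not all are printed), and the 12 with the smallest adjusted p of the difference at the same mean level, predicted genes left out; others are said to be chosen after their values were seen. A called gene here is one past the adjusted threshold. Positions are from GENCODE M21 (GRCm38). Replicate libraries differed by more than sampling noise, so none was counted as a duplicate. For equal replicate numbers, correlations of deviations were 0.01, -0.10 and -0.12 between Xbp1-Ire1 KO and WT. They were 0.02, 0.23 and 0.18 between Xbp1-Ire1 KO and Xbp1 KO, and 0.008, -0.03 and 0.115 between Xbp1 KO and WT. The labels state no pairing, and these values do not settle whether the numbers pair libraries. The main fit used no pairing. No other column of per-sample values was left unused.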

Additional observations from a re-analysis of the deposited data

Results flagged for a closer look

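Of the 53 genes printed for cDC2, 2 had a WT library far from the other 3, where chance alone gives about 1 in 20 groups. Plcb1 was at 0.0850 CPM in WT replicate 1, a single read, and at 0 in the other 3 WT libraries. Gars was at 92.0 CPM in WT replicate 3 and at 98.4 to 99.1 CPM in the other 3.

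The effect of Xbp1 and Ire1 loss differed between cDC2 and cDC1, by a test of the difference itself, for 272 genes. Of the genes printed, chosen by this test or after their values were seen, 20 passed it. The log2 difference, cDC2 minus cDC1, was negative for Trib3 (-6.70), Ptger3 (-5.65), Slc1a4 (-5.26), Asns (-3.93), Phgdh (-3.18), Chac1 (-2.80), Eif4ebp1 (-2.16), Sars (-1.76), Mthfd2 (-1.71), Xpot (-1.62), Xbp1 (-1.54), Hspa9 (-1.40) and Ern1 (-1.35). It was positive for Ccr7 (3.416), Tmem176a (3.31), Plcb4 (3.16), Apol7c (2.69), Tmem176b (2.53), Ccng2 (1.93) and Relb (1.13).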

How the results depend on the processing

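Plcb1 and Cox6a2 rose in Xbp1-Ire1 KO cDC2 under every setting in which they were tested, and Plcb4 under all but limma on the deposited log2 values (5.19, adjusted p = 0.442; the cause was not tested). Against 3 called genes, DESeq2 called 5, the stricter filter 1 because Plcb1 and Cox6a2 were not tested in it, fl-fl WT alone 485, and leaving out single libraries 3 to 4. The replicate block called 4, Itgad joining the other 3 (2.83, adjusted p = 0.0017, edgeR quasi-likelihood). The block by description number called 4, the same 3 genes higher and Thbs1 lower, without Itgad. Whether either number pairs the samples is not given. For the 272 differences between cell types, DESeq2 called 462, the 4 groups alone 174, and leaving out single libraries 170 to 298, lowest without cDC1 Xbp1-Ire1 KO replicate 1. With WT-named WT alone, 1 cDC1 library was assumed to vary like the other groups. Relative to Xbp1 KO, 4 genes were called and 11 by DESeq2; Xbp1 KO against WT gave 12, 47 by DESeq2 and 21 unfiltered. DESeq2 and the unfiltered fit called 1046 and 1012 genes against fl-fl WT, in place of 598, and 699 and 656 between fl-fl WT and WT-named WT, in place of 407. Unfiltered, 24 were called against WT-named WT in place of 3. None of these causes was tested.

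Many printed genes that were uncalled against all WT libraries were called with fl-fl WT alone. Among them were Hmgb2 (0.77), Gpr183 (0.58), Cxcr4 (1.47) and Zfp574 (-1.67). With WT-named WT alone none of these was called. Values that reversed sign were uncalled. Under the block by description number these were Ern1 (0.11), Hspa5 (-0.0387), Atf3 (-0.20), Ccr7 (-0.22), Cd83 (-0.33), Il1b (-0.36) and Nr4a1 (-0.20). With WT-named WT alone they were Ern1 (0.0684), Ccr7 (-0.0538), Cd83 (-0.16), Il1b (-0.22) and Nr4a1 (-0.10). Without single libraries Ern1 ranged from -0.29 to 0.0191. Depth limits Plcb1, Asns, Trib3 and Slc1a4, with few reads in cDC2 WT.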
